A study of Drosophila melanogaster with 384 samples.

Results

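Normal neuroblasts, the stem cells that build the nervous system, were profiled one cell per well from the central brains of Drosophila melanogaster larvae. The cells described here are all wells labelled as control neuroblasts that held at least 100000 reads and at least 1000 features with a read. These were 180 wells of the 2 control plates of 96 wells, of 384 wells in the series, and 12 control wells were left out, the deepest of them with 94781 reads. The other wells hold cells of brat tumors and were not analysed here.

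The control larvae carried 1 copy each of a UAS-Dcr2 transgene, of inscGal4 with a UAS-CD8::GFP reporter, and of a hairpin against mCherry (sh-mCherry, stock BL35785). The Dcr2 transgene is there to strengthen RNA interference, inscGal4 switches the transgenes on in neuroblasts, and mCherry is not a fly gene, so the hairpin serves as a control. These cells are therefore control cells of a knockdown experiment and not cells of a wild-type strain. Larvae were reared at 29 °C and dissected as wandering larvae of the third instar at 6 to 7 days of age. The ventral nerve cord was cut off, 5 central brains were pooled and dissociated with enzyme, and single cells were sorted by FACS into 96-well plates. Messenger RNA was amplified with SMART-Seq2, a full-length protocol with an oligo-dT primer, using 18 PCR cycles.

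Neuroblasts divide asymmetrically. At each division the proteins Insc, Baz and aPKC gather at the apical side and orient the spindle, while Mira carries Pros and Brat to the basal side, from where they pass to the smaller daughter. The daughter of a type I neuroblast divides once more into neurons or glia, whereas a type II neuroblast, which lacks Ase, makes intermediate progenitors that divide several times. Neuroblasts also change the factors they express with age and with their position in the brain, and so produce different neurons over time.

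The kept cells came from 2 plates, 89 cells on plate 1 and 91 on plate 2, told apart here by the library numbers in the labels. Cells held 126882 to 2329488 reads, with a median of 1507074.5, and 262976815 reads in all. With each cell thinned to 100000 reads, a median of 5011 features had a read, 4662 on plate 1 and 5326 on plate 2. The same 96 index pairs were used on each plate of the series, and 86 pairs marked a kept cell on both control plates. The median rank correlation between 2 control cells on different plates was 0.649 for cells with the same index pair (86 pairs) and 0.645 for cells with different ones (8013 pairs). All cells came from pooled brains, and the brain of origin of a cell is not labelled, so they count as 1 sample. The values therefore describe these cells, no test was made, and where 95% intervals are given they cover counting error only. Levels are given in counts per 1000000 reads (CPM) for 1 gene across cells. Where genes are compared with each other, CPM was divided by exonic length and rescaled to 1000000, which is called the per-length level.

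Neuroblast markers were read in nearly all of the cells, as the label calls for. The 6 markers were dpn and wor, which encode transcription factors that maintain self-renewal, mira and insc, which encode the basal adaptor and an apical polarity protein, ase, a proneural factor of type I neuroblasts, and pros, whose protein ends self-renewal in the daughter. All 6 had a read in 81.7% of the 180 thinned cells, and in 91.7% of them when all reads were used. The sort relied on a reporter driven by inscGal4, so a check on insc is not independent of how the cells were taken.

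**Figure D1:**
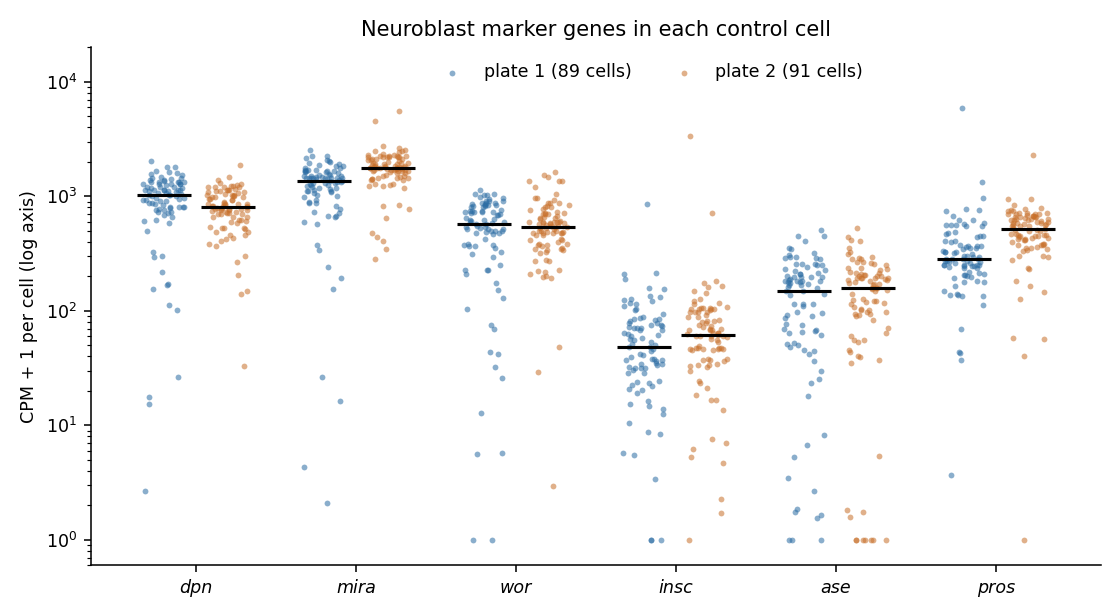
CPM + 1 on a log axis for 6 neuroblast marker genes in each of 89 cells of plate 1 and 91 cells of plate 2, with black bars at the medians. The cells form a compact cloud for dpn and mira on both plates, and scattered cells lie far below it, while ase has a separate row of cells at 0.

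The markers differed in how evenly they were read. dpn had 1006 CPM on plate 1 (95% interval 1001 to 1012) and 832 CPM on plate 2 (827 to 837), and every kept cell had a dpn read. Single cells ranged from 1.68 to 2017 CPM around a median of 1031 CPM on plate 1, and from 31.8 to 1870 CPM around 802 CPM on plate 2. The plates overlapped over nearly the whole of that range. mira had 1306 CPM on plate 1 and 1813 CPM on plate 2, with cell medians of 1356 and 1759 CPM. wor had 569 and 594 CPM, and 2 cells had no wor read at all. insc was lower, with 64.5 and 83.5 CPM, and 4 cells had no insc read. A single plate 2 cell with 3349 CPM supplied 19.7% of that plate's insc reads. pros had 408 and 523 CPM, with cell medians of 282 and 517 CPM, and 1 plate 1 cell with 5862 CPM supplied 19.4% of that plate's pros reads. Per length, mira (706) and dpn (680) stood highest of the 6, followed by wor (394) and ase (97.8), with insc (28.7) and pros (28.1) lowest. Exons of insc overlap those of sktl, those of dpn overlap asRNA:CR44275 and those of pros overlap lncRNA:CR46008. Reads from such overlaps cannot be assigned with certainty to either gene, which also holds for elav, which overlaps arg, for brat and for Hsp27.

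Of the markers, ase was missing from the most thinned cells. ase had 154.3 and 161.3 CPM on the 2 plates and a median of 154.9 CPM per cell, but 18 of 180 thinned cells had no ase read, and 10 had none among all their reads. The genes pnt, btd, Sp1 and tll encode transcription factors of the type II lineage, and cells in which 3 or more of them had 5 or more reads before thinning were called type II-like. There were 8 such cells, 2 on plate 1 and 6 on plate 2. In these 8 cells the median was 0.672 CPM for ase and none had 5 thinned ase reads, against 160 CPM and 83.1% of the other cells. Of the 18 cells without a thinned ase read 6 were type II-like and 12 were not. Medians of the 8 type II-like cells for dpn (888 CPM), mira (1804 CPM) and wor (490 CPM) lay near those of the other cells (888, 1525 and 552 CPM). The pros median of the 8 type II-like cells was 117.8 CPM against 410 CPM. Among the genes that chose them, pnt, which encodes an ETS factor, had at least 5 thinned reads in all 8 and in none of the other cells, which is in part fixed by the rule. tll, also part of the rule, had at least 5 thinned reads in 67.4% of the other cells and 264 CPM overall. erm, ey and opa, factors of the intermediate progenitors, reached 5 thinned reads in none of the 8 cells, and in 26, 21 and 18 of the others.

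A few cells stood apart. The summed CPM of dpn, mira and wor was below 100 in 2 cells, both on plate 1, and 279 or more in the rest, with a median of 3086 over all 180 cells. The first of the 2 (control cell 32) had 2.80 CPM of the 3 genes, 1073 CPM of elav and 843 CPM of fne, both RNA-binding proteins of neurons, and the 5862 CPM of pros given above. The second (control cell 62) had 20.0 CPM of the 3 genes, 2552 CPM of elav and 4287 CPM of Hey, a Notch target seen in newborn neurons. Another 10 cells had a median rank correlation below 0.5 with the other cells, against a median of 0.665 over all, and 9 of the 12 cells below 0.5 had fewer than 3000 features with a read after thinning. Without cells 32 and 62 the number of features at or above 5 CPM was 6327 instead of 6375.

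Among other cell types, the defining markers of glia, hemocytes, muscle, trachea and fat body were near 0, and those of neurons, intermediate progenitors and the optic lobe epithelium were not. The 5 glial markers summed to 2.97 CPM with alrm at 0 reads, which allows at most 0.0114 CPM, and repo, the glial master regulator, had 23 reads in all. In the longer list of 13 genes linked to glia, 4 reached 5 CPM, where 44.8% of all features did. These were ogre (591 CPM), nrv2 (448 CPM), Eaat1 (89.7 CPM) and loco (30.95 CPM). Of these, ogre and nrv2 were read in over 95% of thinned cells, where 9.91% of all features were. The 4 hemocyte markers summed to 0.342 CPM, while crq, a scavenger receptor gene on the longer hemocyte list, had 107.99 CPM and a read in 87.8% of thinned cells. Summed muscle markers came to 2.82 CPM, and tracheal and fat body markers to 2.14 CPM with Fbp1 at 0 reads. The 3 markers of intermediate progenitors (erm, ey and opa) summed to 66.3 CPM with up to 1734 CPM in a cell. At least 2 of them had 5 or more thinned reads in 11 cells, and all 3 in 4 cells. The 3 markers of the optic lobe epithelium summed to 142.6 CPM with up to 9695 CPM in a cell, and Optix gave 134.1 CPM of the sum. By the same rule at least 2 of them were on in 7 cells, and all 3 in 0 cells. The 5 neuronal markers reached 135.3 CPM. At least 2 of them had 5 or more thinned reads in 12 cells, and at least 3 in 2 cells. elav alone gave 97.2 CPM and had a read in 83.9% of thinned cells, while nSyb and brp, which encode parts of the synaptic vesicle machinery and the active zone, were read in 4.44% and 1.67%. Against the 44.8% of all features, 1 of 8 genes in the Hox list reached 5 CPM. This was Antp, with 0.544 CPM on plate 1 and 38.9 CPM on plate 2, where 1 cell supplied 17.3% of its reads. Ubx had 3 reads in all and abd-A none, in cells from brains whose nerve cord had been removed.

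Read output was spread over many genes. Of 14219 features 6375 reached 5 CPM over the pool. The next shares are over the 13458 protein-coding genes with a symbol, without ribosomal RNA pseudogenes. Per length, the 25 highest of these genes held 14.7% of their summed level, 217 held 50% and 2060 held 90%. Among the 25 named genes with the highest per-length level, which leave out ribosomal RNA pseudogenes and IDs without a symbol, 15 encode cytosolic ribosomal proteins. The list was led by Sumo, the small ubiquitin-like modifier, at 9004, alphaTub84B, an alpha-tubulin, at 8570, and the small heat shock gene Hsp27 at 7818. RpL41 stood at 6902 and Hsp23 at 6731. Others among the 25 were the cyclophilin gene Cyp1 (5597), the histone gene His4r (5402), mt:CoII of the mitochondrial genome (5081), the nucleoside diphosphate kinase gene awd (4741), Fkbp12 (4030) and the chromatin protein gene HmgD (3989). The RNA-binding protein gene Syp had 8162 CPM and stood at 1096 per length.

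**Figure D2:**
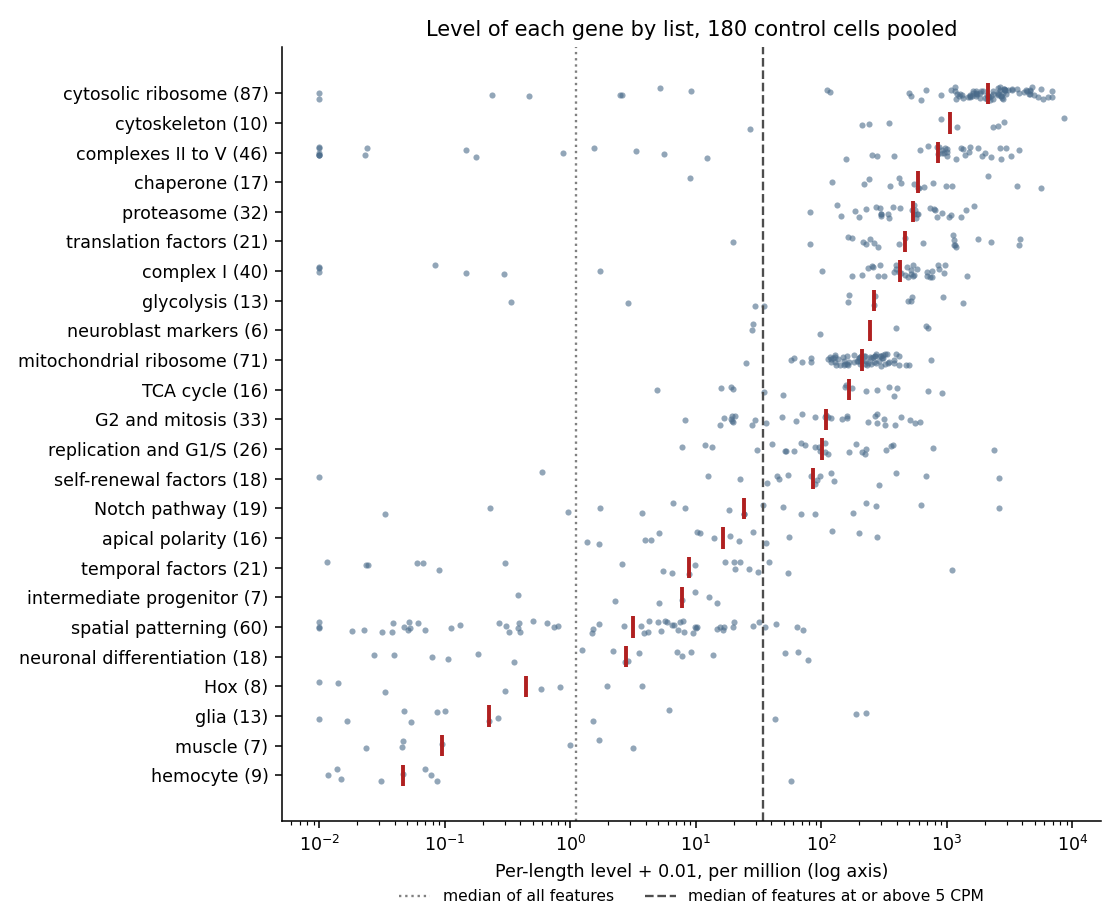
Per-length level + 0.01 on a log axis for each gene of 24 gene lists over 180 pooled control cells, with red bars at the list medians and the number of matched genes in brackets. The ribosomal, cytoskeletal and respiratory chain medians lie to the right of the dashed line at 34.1, the median of features at or above 5 CPM, and Hox, glial, muscle and hemocyte medians lie left of the dotted line at 1.09, the median of all features.

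Cytosolic ribosomal proteins were the most abundant list. The 87 cytosolic ribosomal protein genes had a median per-length level of 2121, against 1.09 for all features and 34.1 for features at or above 5 CPM. They took 12.1% of all reads, 11.1% on plate 1 and 13.1% on plate 2. Of them 78 (89.7%) had a read in at least 95% of thinned cells, where 9.91% of all features did. The 8 genes below 5 CPM were RpL10Aa, RpL22-like, RpL37-2, RpS10a, RpS19b, RpS28-like, RpS28a and RpS5b, which have a second gene for the same ribosomal protein. Reads of near-identical copies may be split between them, so those levels are uncertain. The list of 21 translation genes, not all of them translation factors, had a median of 464 and was led by sta at 3856 and eEF1beta at 3730. The 32 proteasome genes had a median of 533, and 30 were read in at least 95% of cells. Cytoskeletal genes had a median of 1057 over 10 genes, all of them read in at least 95% of cells. Chaperones had a median of 585 over 17 genes, led by Cyp1 and by Hsc70-4 at 3636.

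The small heat shock genes Hsp27, Hsp23 and Hsp26 were high in the pooled cells. Hsp27 had 9795 CPM on plate 1 and 7127 CPM on plate 2, with a cell median of 8172 CPM. Hsp26 had 2140 and 1165 CPM and was read in 99.4% of thinned cells, and Hsp23 had 3686 and 4216 CPM. Of the 24 genes in the list of stress and dissociation responses, 17 reached 5 CPM and 5 were read in at least 95% of cells. Over all features these shares were 44.8% and 9.91%. The inducible Hsp70 copies were far lower, with Hsp70Bb at 352 CPM and Hsp70Aa at 1.21 CPM, and their reads cannot be split with certainty between near-identical copies. The larvae were reared at 29 °C and the cells were dissociated with enzyme before sorting, and whether either moves these genes was not tested.

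Respiratory chain genes were read in nearly every cell, and their duplicates were not. The 46 genes of complexes II to V had a median per-length level of 854, led by ATPsynC, the c subunit of ATP synthase, at 3786, and COX7A of cytochrome c oxidase at 3245. All 31 of them that reached 5 CPM were read in at least 95% of cells, against 22.1% of all features at or above 5 CPM. The 15 below 5 CPM were all duplicates with symbols ending in L or in L and a digit, such as COX4L at 0.422 CPM beside COX4 at 796 CPM. In complex I, with a list median of 425, 33 of 40 genes reached 5 CPM, where 44.8% of all features did. Of the 7 below 5 CPM 6 were such duplicates. Of the 8 mitochondrially encoded genes matched here, mt:CoII (5081), mt:CoI (3656) and mt:CoIII (2939) were high per length, and mt:ND2, mt:ND3 and mt:ND6 lay between 3.39 and 17.5. The 71 genes of the mitochondrial ribosome had a median of 213, and the 16 genes of the tricarboxylic acid cycle a median of 166.1.

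Glycolytic genes ranged widely in level. The 13 genes had a median per-length level of 264, with Pglym78 at 1358, Gapdh2 at 927, Ald1 at 525 and Eno at 522. Hex-A (34.8) and Pfk (29.6) stood lower. Ldh, which encodes lactate dehydrogenase, had 3.71 CPM and a read in 10.0% of thinned cells, and Hex-C had 0.323 CPM. Hex-A, Pfk, Ldh and Hex-C were named after their values were seen. Between cells, glycolytic reads ranged more than respiratory chain reads. On plate 1 the upper quartile of cells was 1.596 times the lower quartile for the glycolysis list, and 1.21 times for complexes II to V.

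The self-renewal factors were present at moderate levels and in most cells. Of 18 matched genes 16 reached 5 CPM and 11 were read in at least 95% of thinned cells, against 44.8% and 9.91% of all features. Their median per-length level was 86.02. E(spl)mgamma-HLH, a Notch target that holds neuroblasts in the stem cell state, was highest at 2607, with 1822 CPM on plate 1 and 1329 CPM on plate 2. nab, a co-regulator, stood at 291 and klu, a zinc finger factor, at 126.8. Of the other Notch genes E(spl)m8-HLH stood at 621 and E(spl)mbeta-HLH at 274, while the receptor gene N stood at 34.4. In CPM, N was read in 98.3% of thinned cells and E(spl)mbeta-HLH, with a similar pooled level of 177.9 CPM against 232 CPM, in 84.4%. Ser, a Notch ligand, had 0.0913 CPM. klu, N and Ser were named after their values were seen.

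Apical polarity genes were mostly low and basal determinants higher. The 16 apical polarity genes had a median per-length level of 16.3. Of them 15 reached 5 CPM, where 44.8% of all features did. The G protein subunit genes Ggamma1 (279), Gbeta13F (199) and Galphai (120.96) were highest. par-6, which encodes the partner of aPKC, stood at 55. aPKC had 19.7 CPM on plate 1 and 100.9 CPM on plate 2, one of the largest gaps between the plates. The 6 basal determinants had a median of 64.8. Among them stau, an RNA-binding protein gene, stood at 358, numb, a Notch inhibitor, at 89.2, brat at 40.4 and pon, the partner of numb, at 16.5. brat, the gene knocked down elsewhere in the series, had 312 and 374 CPM in these control cells and a read in 99.4% of them.

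The timing genes ranged from Syp, among the most read of all genes, to factors near 0. Syp, a late temporal factor, was read in all cells with a median of 8140 CPM, and its lower quartile was 6693 CPM. Eip93F, also late, had 142.9 CPM and was read in 98.3% of thinned cells. The early factors were hb at 1 read, Kr at 0.0418 CPM, pdm2 at 0.152 CPM and nub at 0.201 CPM. cas had 0.333 CPM on plate 1 and 22.6 CPM on plate 2, and 1 cell held 71.6% of the plate 2 reads. svp had 74.3 CPM and chinmo, an early larval factor, 187.6 CPM, read in 84.4% and 94.4% of cells. grh, a factor of larval neuroblasts, stood at 54.5 per length with 333 CPM. Eip93F, hb, Kr, pdm2, nub, cas, svp and chinmo were named after their values were seen, and the early partner of Syp, Imp, matched no symbol and is not given.

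Cell cycle genes were all read in the pool, though not all in nearly every cell. All 33 matched G2 and mitosis genes and all 26 matched replication and G1/S genes reached 5 CPM, where 44.8% of all features did. Of them 18 (54.5%) and 13 (50%) were read in at least 95% of thinned cells, where 9.91% of all features were. The median per-length levels of the 2 lists were 109.4 and 102.2. PCNA, the sliding clamp of replication, stood at 2384 and was read in 99.4% of thinned cells. stg, the Cdc25 phosphatase that triggers mitosis, stood at 616, CycB3 at 557 and geminin, which prevents relicensing, at 780. stg had a lower and upper quartile of 688 and 1701 CPM per cell, and PCNA of 1279 and 2041 CPM. dap, the inhibitor of Cdk2 known from cells leaving the cycle, had the lowest per-length level of the replication list with 7.82, and was named after its values were seen.

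**Figure D3:**
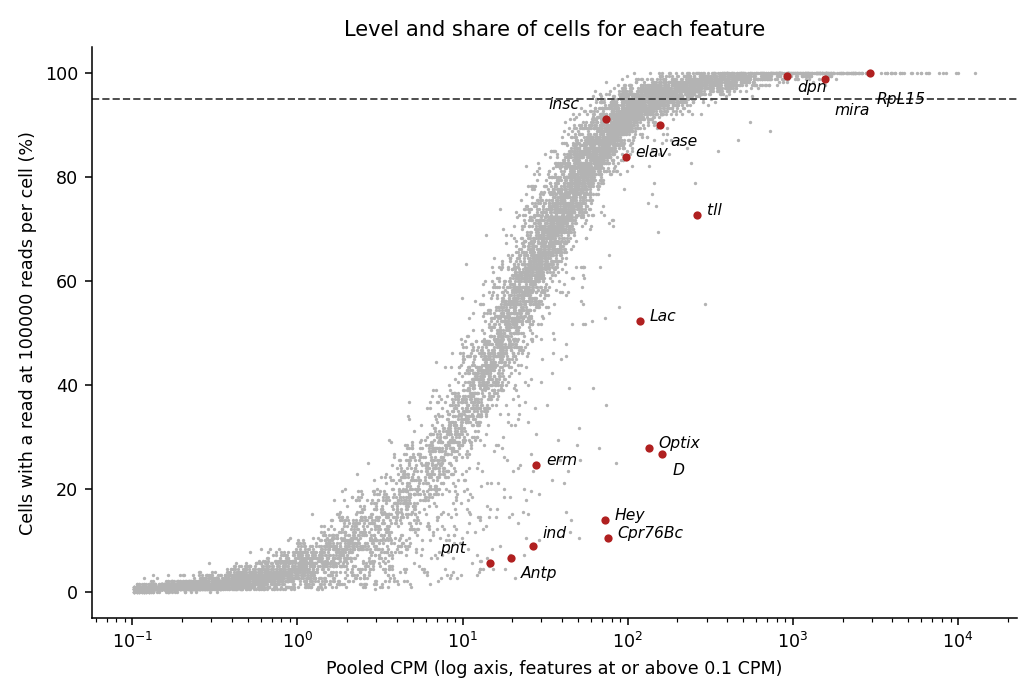
Share of 180 cells with a read after thinning to 100000 reads per cell against pooled CPM on a log axis, with each grey point a feature and selected genes in red. Most features follow a single S-shaped curve, and Optix, D, Hey, Cpr76Bc and Lac lie far below it at their level, being high in few cells, with D at 161.7 CPM read in 26.7% of cells and RpL15 at 100%.

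The share of cells with a read followed the level for most features. Of all features 1409 (9.91%) were read in at least 95% of thinned cells, 263 in every one of the 180 cells and 4166 in none. On plate 1, 1215 features passed 95%, and on plate 2, 1727, and 1144 passed on both, which is 94.2% of the plate 1 set and 66.2% of the plate 2 set. With all reads in place of thinned ones the number was 2212, and 784 when the 12 shallow wells were added.

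Several patterning genes were on in a minority of cells. Optix, a homeobox gene of anterior brain regions, had at least 5 thinned reads in 47 cells, 22 on plate 1 and 25 on plate 2, with a median of 357 CPM in those cells, and no read of any kind in 110 of 180. The Sox gene D was on by the same rule in 37 cells with a median of 605 CPM, and had no read in 58.9% of the 180 cells. slp1, a forkhead gene, was on in 30 cells at 151.1 CPM, erm in 26 at 117.1 CPM, ey in 21 at 115.8 CPM and opa in 18 at 172.7 CPM. ind, a homeobox gene of the intermediate column, was on in 12 cells at 348 CPM. Cpr76Bc, a cuticle protein gene by its name, was on in 14 cells, 3 on plate 1 and 11 on plate 2, at a median of 828 CPM. Of the 60 matched spatial patterning genes 30 (50%) reached 5 CPM, near the 44.8% of all features, none was read in 95% of cells, and the median share of cells was 6.11%, the same as over all features.

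The overlap of these minorities differed from pair to pair. Optix and D, the 2 largest, were on together in 3 cells, 6.38% of the Optix cells and 8.11% of the D cells. Optix and Fas3, an adhesion molecule gene, were on together in 16 cells, 34.04% of the Optix cells and 47.1% of the 34 Fas3 cells. ey and opa were on together in 9 cells, 42.9% and 50.0% of each, and erm with D in 8 cells, 30.8% and 21.6% of each. slp1 and Sp1 shared 8 cells, 26.7% of the slp1 cells and 72.7% of the 11 Sp1 cells. Hey was on in 12 cells, of which 7 also had Fas3 on. These are counts of cells from 1 pool and no chance level was computed.

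The 2 plates agreed in the order of genes and differed in level by length. Over the 6375 features at or above 5 CPM, the rank correlation of the plates' pooled CPM was 0.940 and Pearson's r of log2 CPM was 0.932, and features are not independent replicates. The median absolute log2 ratio was 0.39. Of these features 6.95% (443) were at least 2-fold higher on plate 2 and 2.85% at least 2-fold lower. The ratio moved with exonic length, from a median log2 of -0.33 in the shortest of 5 groups of about equal size to 0.43 in the longest, and 219 of the 443 lay in the longest group against 25 in the shortest. Plate 2 also had more features per cell, as given above, and the part of length and depth in any plate difference was not tested.

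**Figure D4:**
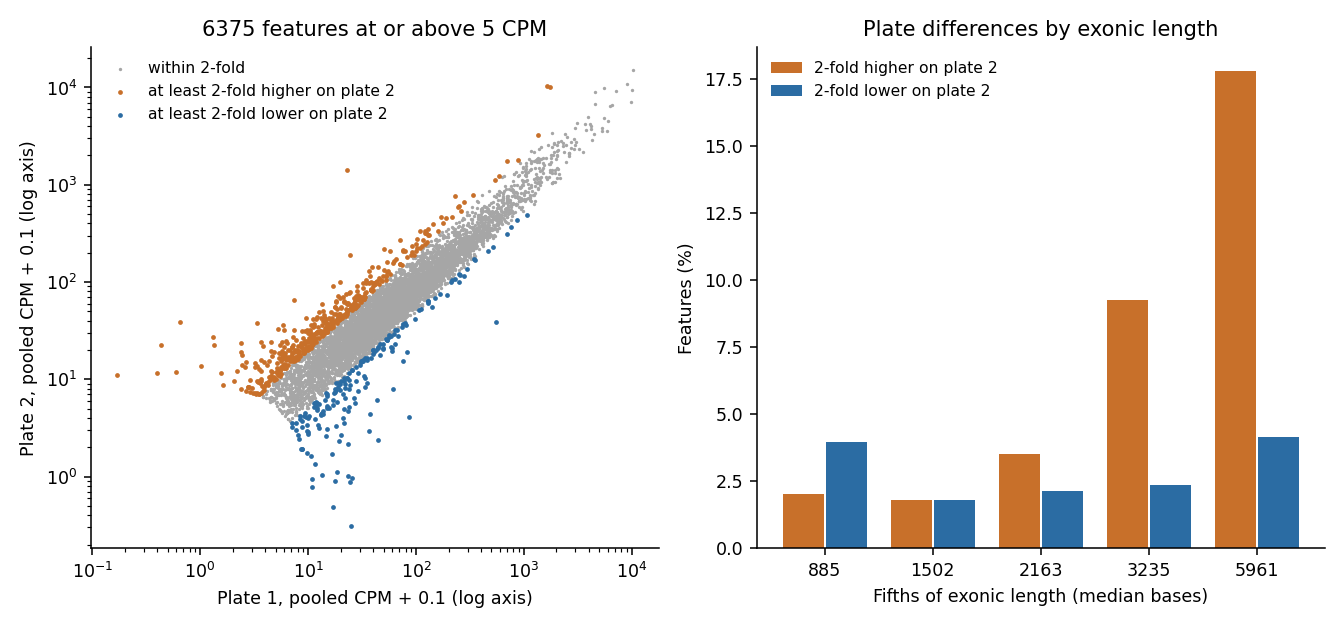
Left, pooled CPM + 0.1 of 6375 features on plate 1 and plate 2 on log axes, with features at least 2-fold higher or lower on plate 2 in color. Right, bars give the percent of features past 2-fold in each of 5 groups of about equal size by exonic length, where features higher on plate 2 rise from 25 in the shortest group to 219 in the longest.

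Genes at or above 50 CPM with the largest excess on plate 2 were Ubqn, a ubiquilin gene (24.1 and 188.3 CPM), the histone gene His1:CG33804 (16.9 and 90.2 CPM), aPKC, and bur, a GMP synthetase gene (50.6 and 220 CPM). aPKC shares exonic bases with CG10257 and bur with asRNA:CR44911, so their levels are uncertain. BubR1, a spindle checkpoint kinase gene, had 28.2 and 91.96 CPM, and the transporter gene Eaat1, which glia also express, had 38.9 and 141.1 CPM. Those lowest on plate 2 included mamo (81.8 and 19.2 CPM), for which 1 cell held 92.9% of the plate 2 reads. Polr2K, a small RNA polymerase subunit gene, had 279 and 114.3 CPM, and ND-B17.2 of complex I had 514 and 229 CPM. In the lists, 5 of 33 G2 and mitosis genes were 2-fold higher on plate 2 and none lower, with a median log2 ratio of 0.26 against -0.07 over all features at or above 5 CPM. Complexes II to V had a median of -0.46 with no gene past 2-fold, and complex I -0.44 with 1 gene lower. The cytosolic ribosomal proteins had 0.31 with 2 of 79 genes higher. None of the 6 neuroblast markers passed 2-fold. Over all features at or above 5 CPM, 6.95% were 2-fold higher and 2.85% 2-fold lower on plate 2, so 6 genes are too few to differ from these shares.

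Ribosomal protein genes were frequent among the genes that varied least from cell to cell. Spread was measured on thinned reads as the squared coefficient of variation over the running median of features of like level, on a log2 scale, so that 0 is the usual spread at that level. Of the 10 genes at or above 100 CPM with the lowest values on both plates, 7 were ribosomal protein genes. The cytosolic ribosomal list held 79 of the 5000 features at or above 20 CPM. That minimum is lower than the 100 CPM used for the 10 genes, so 79 of 5000 is not their matching share. The share of the list at or above 100 CPM is not given here. RpL15 had -1.65 on plate 1 and -1.35 on plate 2, and RpL3 had -1.54 and -1.43. RpL6 ranged over the cells from a lower quartile of 2481 to an upper quartile of 3024 CPM. RpS28b was an exception, with 3.12 and 3.00. Over whole lists, the median was -0.57 and -0.39 for the cytosolic ribosomal proteins and -0.15 and -0.51 for the cytoskeleton. The other 3 of the 10 were eIF2beta, a subunit gene of a translation initiation factor, Tim17b of mitochondrial protein import and mRpS28 of the mitochondrial ribosome.

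**Figure D5:**
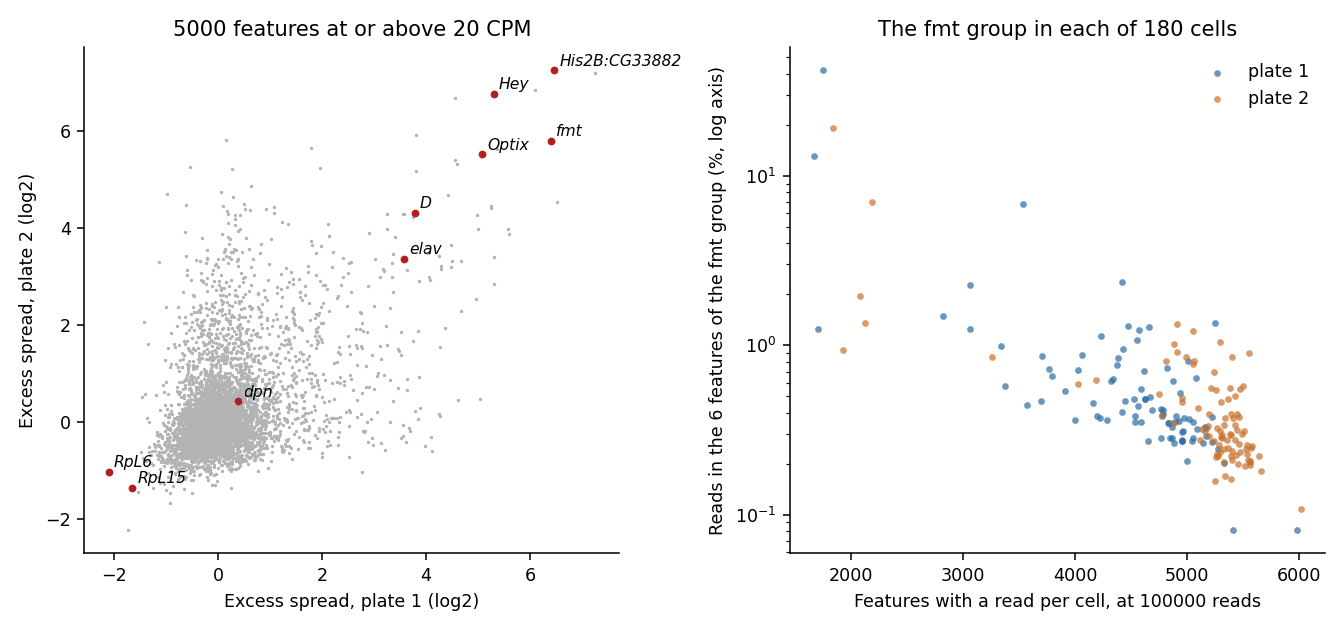
Left, excess spread (log2) of 5000 features at or above 20 CPM on plate 1 and plate 2, with RpL6 and RpL15 at the bottom left and fmt, His2B:CG33882, Hey and Optix at the top right. Right, percent of a cell's reads in the 6 features of the fmt group on a log axis against features with a read, where the share falls from 42.0% at the left to 0.0808% among cells with many features.

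Genes of the highest spread were of several kinds. Of the 200 features with the highest excess spread on each plate 67 were shared, 33.5% of each set and 1.34% of the 5000 features compared, and the rank correlation of the excess spread between plates was 0.326. Some were genes on in a minority of cells, as Optix (5.08 and 5.53) and D (3.78 and 4.32) were. GstS1, a glutathione S-transferase gene, had 3.24 and 3.98, with quartiles of 42.5 and 170.8 CPM. Lac, a septate junction adhesion gene, had 3.02 and 3.36 and was read in 52.2% of thinned cells. Replication-dependent histone genes were among them, His2B:CG33882 (6.47 and 7.26), His2B:CG33872 (6.09 and 6.85) and His4:CG33901 (3.36 and 3.47). His4:CG33901 ranged from a lower quartile of 1.14 CPM to an upper quartile of 239 CPM. Histone genes are near-identical repeats, so the split of reads between copies is uncertain.

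A different set took a larger share of reads in cells with few genes. fmt had 6.39 and 5.80 of excess spread and a range from a cell median of 2538 CPM to 220331 CPM. Over the 180 cells 5 more features had a rank correlation of at least 0.8 with fmt, namely FBgn0261451, bru3, CG2278, Hr4 and CG43110, a group chosen after its values were seen. Together the 6 took 0.0808 to 42.0% of a cell's reads with a median of 0.376%. Their share had a rank correlation of -0.68 with the number of features read (-0.70 on plate 1 and -0.61 on plate 2), and both share the reads of the same libraries. In the 9 cells with fewer than 3000 features it had a median of 1.97%, against 0.365% in the other cells, and in the 12 wells left out a median of 5.53% and a highest value of 84.3%.

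The list of variable genes depended on those cells. With the 85 and 86 cells of the plates that held at least 500000 reads and 3000 thinned features, 66% of each top 200 were shared between plates in place of 33.5%, and 51 features were shared in both settings. Of the 20 named genes with the highest spread, 10 remained among the shared ones. These were Optix, D, GstS1, Lac, ytr, fmt, Hr4, His2B:CG33882, His2B:CG33872 and His4:CG33901. Values were lower in this setting for Optix (3.54 and 3.44), fmt, Hr4 and the histone genes, and not for D, GstS1, Lac and ytr. His2B:CG33882 had 3.32 and 3.44 in place of 6.47 and 7.26, and His2B:CG33872 1.81 and 1.95 in place of 6.09 and 6.85. Genes high in this setting on both plates were Hey (5.41 and 7.04), mamo (4.62 and 6.89), Fas3 (4.55 and 5.11) and elav (3.88 and 3.80), as well as the Notch targets E(spl)m6-BFM (3.84 and 5.33) and E(spl)mbeta-HLH (3.22 and 3.31). These values were computed after the first ones were seen. For mamo, most reads of the kept plate 2 cells came from 1 cell, as given above. The setting kept control cells 32 and 62 of plate 1, the 2 cells low in dpn, mira and wor. They had 2867 and 382 CPM of Fas3, beside their elav levels and the Hey level of cell 62 given above. What these 2 cells add to the plate 1 values was not tested.

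Genes linked to the transgenes were read as well. Dcr-2 had 376 CPM on plate 1 and 659 CPM on plate 2, and reads of the UAS-Dcr2 transgene and of the endogenous gene cannot be told apart. w, whose mini-gene marks many transgenes, had 444 and 447 CPM and a read in 98.9% of thinned cells. v, the marker of many hairpin stocks, had 3.80 and 1.31 CPM and a read in 5.00% of thinned cells. Over chromosomes, the median per-length level of protein-coding genes at or above 5 CPM was 27.5 on X, 12.9 on chromosome 4 and 34.6 to 36.1 on the 4 large autosome arms. The labels name no sex, so the pool may hold larvae of both.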

How the data were processed

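The authors deposited 1 table of raw read counts, in whole numbers, for each feature and well. It is not normalized, judging from totals that differ between wells. The builds BDGP6 and dm6 are named per the submitters' processing notes. The aligner, counting tool and strand setting were not given in the sources used here, so reads shared by overlapping or antisense genes cannot be told apart. The libraries carried no molecular identifiers, per the labels' protocols, so reads include PCR copies.

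Of 14219 features 13702 matched a symbol. The other 517 stayed in the totals and hold 4.85% of the reads, and 21 rRNA pseudogenes hold 4.13%. Lengths are the merged exons of each gene in Ensembl 115 (BDGP6). Pooled CPM is the sum of reads over kept cells per 1000000. Thinning drew 100000 reads per cell at random. Poisson intervals are exact at 95%. No doublet caller was run, since cells were sorted singly per the labels' protocols.

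The cells, the 37 gene lists and the rule for named genes were chosen with earlier results of these data known. List genes without a matching symbol are in no value. The level of 1 gene that the rule names is not reported here. Named are the 6 markers, all members of lists of 8 or fewer, the 4 highest per length of each other list, the 25 highest per length, the 20 most and 10 least variable at or above 100 CPM, 15 genes read in 5 to 50% of cells on each plate, and the 10 highest and 10 lowest plate ratios at or above 50 CPM. Of the 15, those with at least 10 cells at 5 or more thinned reads are given, since the rest were held by few cells. Alternatives covered cell filters, plates, weights, thinning, minimum level, length and scaling. The steps were tested on simulated reads. TMM factors came from edgeR 4.0.16 (R 4.3.3). All other values came from scipy 1.17.1, pandas 2.3.3 and numpy 2.4.6 under Python 3.11.15, and figures from matplotlib 3.10.9.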

Additional observations from a re-analysis of the deposited data

Results flagged for a closer look

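The 12 control wells left out for low depth carry a signal outside the 180 cells described. They held 3219 to 94781 reads, and the reads of the 6 neuroblast markers made up 4471 per 1000000 of their reads, against 3756 in the kept cells. Most of these were insc reads of 1 well (control cell 100, 94781 reads), which held 793 of 796. Without that well the 6 markers came to 1272 per 1000000. mira had a read in all 12 wells and dpn in 10.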

How the results depend on the processing

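The results were recomputed under 197 alternatives, and 29 moved by more than the limit, which was 1.5 times the value (counts and the plate ratio) or the SD over the plates (genes per cell, shares and list medians). The features in at least 95% of cells numbered 2212 without thinning and 784 with every well. Genes per cell had a median of 5801.5 without thinning and 4537.5 at 50000 reads. At 50 CPM and above, 3.34% of features were 2-fold higher and 1.00% lower on plate 2, and 6.03% were lower at 1 CPM and above. The shared variable features were 66% of each set with cells of at least 500000 reads and 3000 thinned features, chosen after seeing the data. Without plate 1 the list medians were 78.6 for self-renewal, 21.4 for apical polarity, 0.334 for glia, 132.7 for replication, 134.4 for mitosis, 806 for complexes II to V, 233 for glycolysis, 446 for the proteasome and 52.6 for chromatin. Without plate 2 they were 81.4 for self-renewal, 3.71 for neuronal differentiation, 0.00482 for hemocytes, 0 for trachea and fat body, 0.0717 for Hox, 1.09 for spatial patterning and 48.6 for chromatin. With the longest transcript's length they were 83.4 for self-renewal, 561 for translation genes and 1178 for the cytoskeleton. With cells weighted equally they were 1025 for the cytoskeleton and 49.6 for chromatin. Since the SD is that of the same 2 plates, leaving out a plate is a weak check by this limit. The type II median, 3.04 over both plates, was 5.04 without plate 1 and 1.21 without plate 2, and the median of neural RNA-binding genes, 35.4, was 23.6 without plate 2, all within that SD. The cause of these shifts was not tested. No paired analysis was possible because the replicate numbers only number wells and no test was made. Near 5 CPM a gene had a read in few thinned cells, so shares there are limited by depth.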

Other observations

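The genes that read out sex and dosage compensation were present in the pool. Sxl, the master switch of female development, had 65.8 CPM and a read in 85.6% of thinned cells, and msl-2, whose protein is made in males, had 40.97 CPM and a read in 71.7%. The DNA-binding protein gene fru had 99.005 CPM and dsx 4.77 CPM. These genes were named after their values were seen, and transcripts of both sexes were not split into their spliced forms.

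Growth signaling genes differed widely in level. path, an amino acid transporter gene, stood at 336 per length and was read in 97.8% of thinned cells. Thor, the translation inhibitor 4E-BP, stood at 176.98 but was read in 55% of thinned cells, with a cell median of 19.4 CPM and an upper quartile of 102.8 CPM. Myc had 278 CPM and was read in all 180 cells. Alk and its ligand gene jeb had 1.79 and 2.01 CPM. Alk and jeb were named after their values were seen.

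Among chromatin genes HmgD led at 3989 per length, followed by the replacement histone gene His3.3A at 2651 and D1 at 1407. The Polycomb group genes Pc and E(z) had 60.3 and 81.7 CPM, and were read in 85.6% and 91.7% of thinned cells. Both were named after their values were seen.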
